A study of Rattus norvegicus with 14 samples.

Results

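The genes described here encode proteins that cap, turn over and nucleate actin filaments, measured in the hippocampal subfield CA3 of 14 rats. They were chosen as 10 named genes: Tmod2, Nckap1, Cap2, Pfn1, Pfn2, Cfl1, Cyfip2, Limk1, Pak1 and Rac1. Their probe sets are all those whose platform annotation names 1 of these genes alone, which gave 16 of the 15923 probe sets, for 9 of the 10 genes. The array names 10412 genes in this way. Cfl1, the filament-severing protein cofilin, was covered by 1 probe set that is annotated to Cfl1l1 as well, so no value is given for it. All 16 probe sets lay above the dim filter, a mean log2 level of 3.88.

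The rats were young male Long-Evans animals, 3 to 4 months old, that had all been trained earlier in a standard water maze and, 2 to 3 weeks later, swam 8 trials spaced 8 min apart in a new maze. In the learning group (7 rats, called learning activated in the labels) the maze had orienting cues and a visible platform in a constant place. In the control group (7 rats) the visible platform changed place and orienting cues were missing. Both groups had a 90 s probe trial without the platform 1 h later and were killed directly afterwards, and each animal's microdissected CA3 went onto 1 Affymetrix RAE230A array. Cues and platform movement differed together, so their effects cannot be told apart. The comparison addresses whether quick encoding of a place alters CA3 transcripts.

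Actin filaments grow and shrink at their ends, and in neurons they fill the dendritic spines, whose shape follows filament turnover. Tropomodulins cap the slow-growing pointed end, profilins and cyclase-associated proteins feed actin monomers back for growth, and cofilin severs old filaments. The GTPase Rac1 starts branched growth through the WAVE complex, of which Nckap1 and Cyfip2 are subunits, and restrains cofilin through the kinases Pak1 and Limk1.

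The promoters of Tmod2, Nckap1 and Pfn2 are shown because these genes had the probe sets at which the groups did not overlap. Each is the RefSeq window of 300 bases around the annotated start, printed 5' to 3' on the gene's strand (minus in each case) of build GRCr8. The windows lie at chr8:85232687-85232986 (Tmod2), chr3:85898525-85898824 (Nckap1) and chr2:144222887-144223186 (Pfn2). Capitals mark matches on either strand to 5 motifs: the CRE (TGACGTCA), its core (TGACG, which lies inside the whole site), the GC box (GGGCGG), the CCAAT box (CCAAT) and the TATA box (TATAAA).

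Tmod2: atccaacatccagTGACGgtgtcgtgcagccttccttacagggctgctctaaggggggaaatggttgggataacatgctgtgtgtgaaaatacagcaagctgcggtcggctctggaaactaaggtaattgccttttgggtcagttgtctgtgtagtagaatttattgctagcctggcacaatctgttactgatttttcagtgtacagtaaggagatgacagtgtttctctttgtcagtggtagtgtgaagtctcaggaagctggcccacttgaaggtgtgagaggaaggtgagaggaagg
Nckap1: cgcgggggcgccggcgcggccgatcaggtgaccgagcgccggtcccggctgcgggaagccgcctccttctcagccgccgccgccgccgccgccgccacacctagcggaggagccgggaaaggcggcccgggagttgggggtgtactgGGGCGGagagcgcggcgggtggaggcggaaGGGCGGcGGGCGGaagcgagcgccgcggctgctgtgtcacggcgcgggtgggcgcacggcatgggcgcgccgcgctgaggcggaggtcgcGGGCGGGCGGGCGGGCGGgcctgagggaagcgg
Pfn2: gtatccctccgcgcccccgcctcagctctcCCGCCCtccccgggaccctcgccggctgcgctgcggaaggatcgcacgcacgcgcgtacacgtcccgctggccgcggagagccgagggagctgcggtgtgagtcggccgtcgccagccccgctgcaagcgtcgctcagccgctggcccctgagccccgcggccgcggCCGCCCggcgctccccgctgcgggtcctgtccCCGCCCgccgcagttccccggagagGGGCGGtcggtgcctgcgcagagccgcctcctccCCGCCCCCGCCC

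The Tmod2 window held 1 match, a CRE core, and no GC box, and 47.7% of its bases were G or C. The Nckap1 window held 7 GC boxes, some of them overlapping, with 81.0% G or C, and the Pfn2 window held 6, with 79.7%. Of 33469 RefSeq promoters of this length, 33.1% hold a GC box, 21.2% a CRE core and 1.83% a whole CRE, and their median share of G or C is 51.7%. Of the 9 members with a promoter entry, Pak1 alone held a whole CRE, and Tmod2 alone held no GC box. Matches of this kind are letters in a window and do not show that a factor binds there.

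The arrays are described by values that stand beside the results below. Correlations between arrays ran from 0.983 to 0.995. Of 15 measures per array compared between the groups, each with a two-sided exact permutation test over every split of the 14 arrays into 7 and 7, 4 passed after Benjamini-Hochberg adjustment. The spike-in level was 0.24 higher in the learning group (exact p = 0.00117, adjusted p = 0.00583). The 5 choroid plexus markers averaged -0.57 (learning 4.85 to 5.33, control 5.34 to 6.21, exact permutation p = 5.83e-04, adjusted p = 0.00437), and 3 of the 5 were above the dim filter. Of these Ttr had a difference of -2.09 and was called, Igfbp2 had -0.70 and Enpp2, the brightest, -0.029. The 5 astrocyte markers averaged -0.10 (learning 10.46 to 10.67, control 10.58 to 10.73, exact permutation p = 0.0122, adjusted p = 0.0459), all 5 above the filter. The probe set balance averages, over 349 other genes, the level of the dimmest less that of the brightest probe set. Only genes whose dimmest and brightest probe sets lay at least 2 apart on the log2 scale entered it. The balance was -3.25 ± 0.03 in learning and -3.42 ± 0.11 in control arrays (SD, n = 7 each, exact permutation p = 5.83e-04, adjusted p = 0.00437). Markers of smooth muscle and pericytes, which carry contractile actin, averaged 4.60 to 4.93 in the learning group and 4.54 to 4.94 in the control group (exact permutation p = 0.413, adjusted p = 0.563). Of 5 markers of CA3 pyramidal cells 3 were measured (Grik4, Bok and Nptx1), all 3 above the filter, with means of 9.58 ± 0.07 in learning and 9.57 ± 0.12 in control arrays (SD, n = 7 each). All 5 markers of CA1 pyramidal cells were above the filter too, with Wfs1 at 8.74 and Mpped1 at 8.78 over the 14 arrays and list means of 7.44 ± 0.23 in learning and 7.42 ± 0.42 in control arrays (SD, n = 7 each). The markers therefore show pyramidal cell RNA and do not separate CA3 from CA1. Control replicate 5 had the highest Gapdh and hexokinase 3'/5' ratios, which measure RNA integrity. Differences without it are therefore given for the member probe sets at which it had the lowest level of all arrays. In tissue RNA, fewer cells of a type and less RNA per cell cannot be told apart.

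Tmod2 was the member with the largest differences, and it was higher in the learning group at each of its 3 probe sets, with no overlap between the groups at any of them. The members were selected on a list drawn up with their learning minus control differences already in view, so differences and calls of members are descriptions without a test. A probe set is called where its limma p, adjusted over all 9520 tested probe sets, lies under 0.05. Of the 16 member probe sets 7 were called, all higher in the learning group, in 4 of 9 genes. That is 43.8% of them, while 3.35% of all tested probe sets were called, 2.55% as higher and 0.798% as lower. No member probe set was called lower, and at an unadjusted p under 0.05 in limma 10 were higher and 0 lower, against 889 higher and 1009 lower of all 9520. The median difference was 0.18 (log2) over the 16 probe sets, 0.15 over the 13 without Tmod2 and -0.017 over all tested probe sets. Every learning animal lay above every control animal at 5 member probe sets, and at 1.73% of all tested ones.

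**Figure D1:**
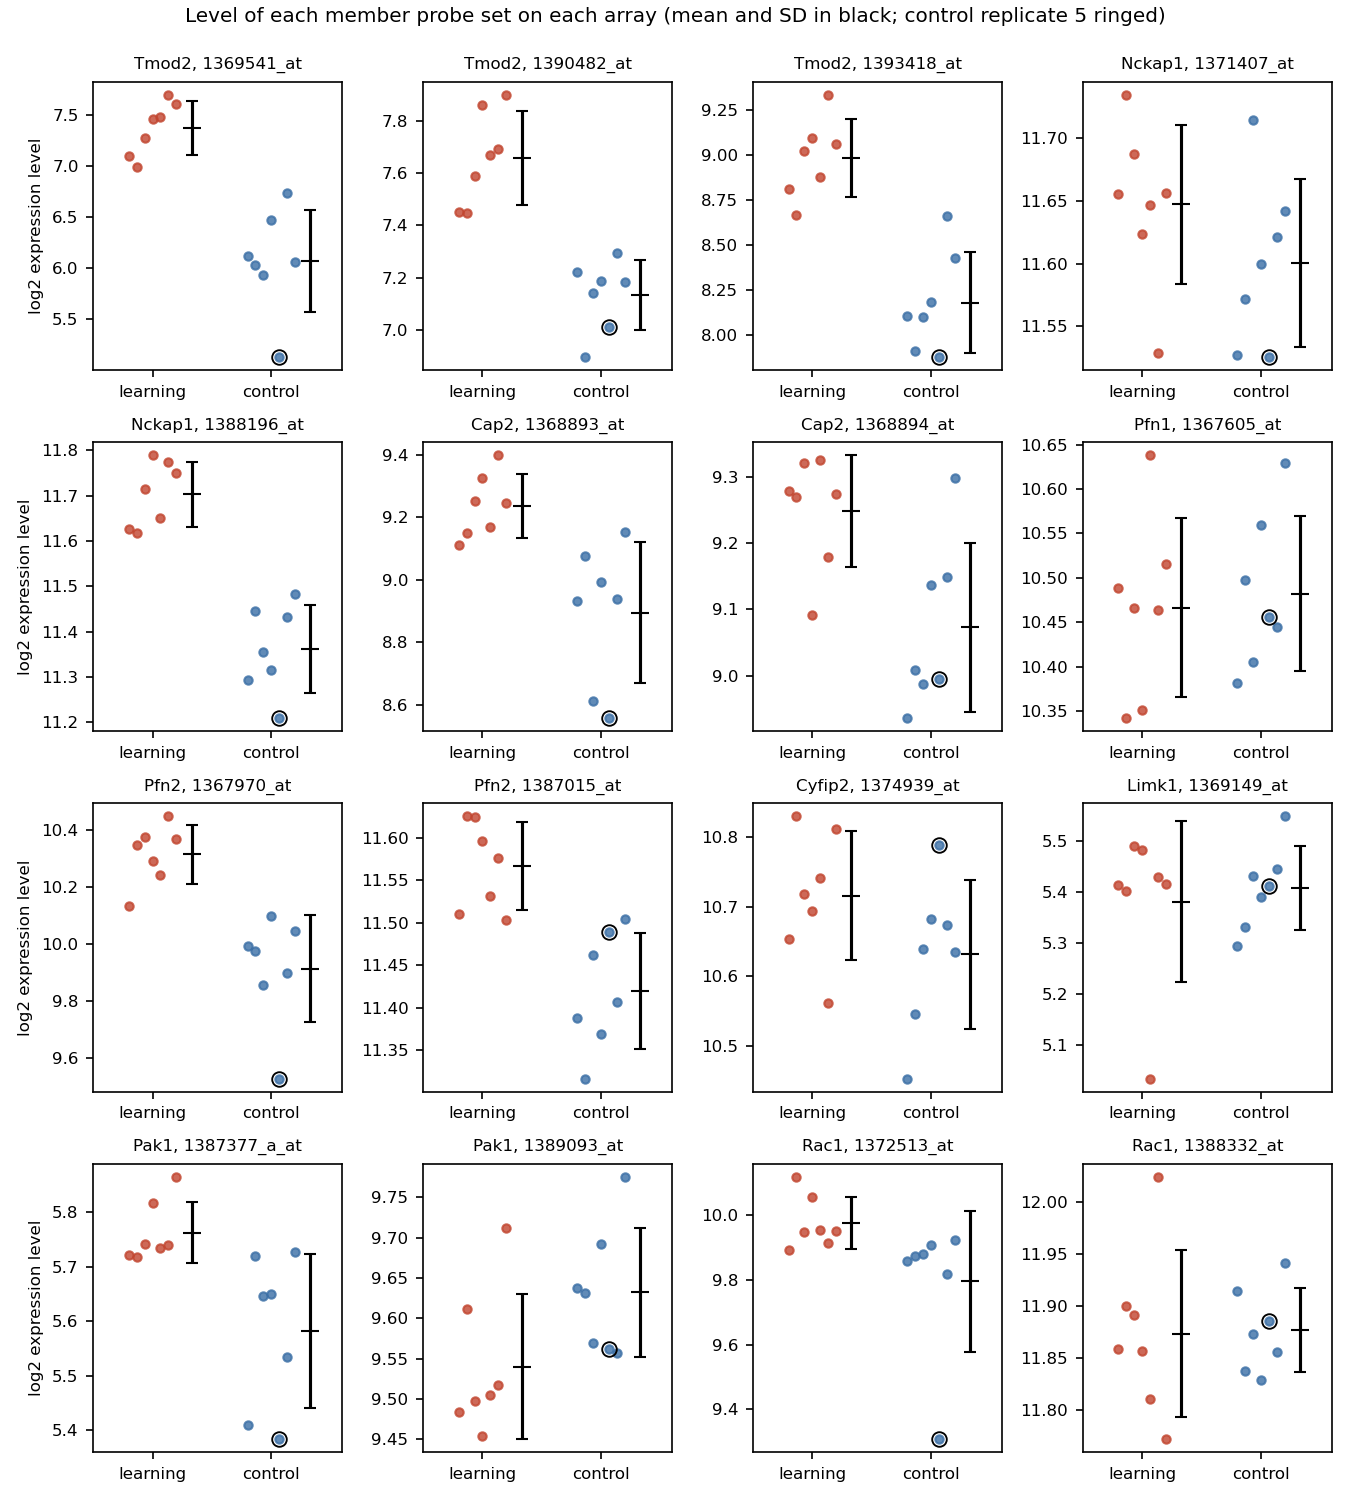
Each panel plots the log2 expression level of 1 member probe set on every array, learning animals on the left and control animals on the right, with the mean and SD of 7 arrays in black and control replicate 5 ringed; vertical scales differ between panels. The groups do not overlap at the 3 Tmod2 probe sets, at Nckap1 1388196_at and at Pfn2 1367970_at, while Pfn1, Limk1 and Rac1 1388332_at overlap widely.

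Tmod2 encodes the tropomodulin of neurons. At probe set 1369541_at, designed on a RefSeq mRNA, the lowest, median and highest log2 levels were 7.00, 7.46 and 7.70 in learning animals and 5.13, 6.06 and 6.73 in control animals. Every learning animal lay above every control animal, and the lowest of all was control replicate 5. The log2 difference was 1.31 (SE 0.19, n = 7 each), the third largest increase among the 9520 probe sets, and 1.15 without control replicate 5.

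The other Tmod2 probe sets were designed on expressed sequence tags. At 1393418_at, the brightest of the 3, levels were 8.67, 9.02 and 9.33 in learning animals and 7.88, 8.10 and 8.66 in control animals (lowest, median, highest). The groups only just separated there, by 0.0069, and the difference was 0.80 (SE 0.12), or 0.75 without control replicate 5. At 1390482_at levels were 7.45, 7.67 and 7.90 in learning animals and 6.90, 7.18 and 7.29 in control animals. This probe set had the smallest difference of the 3, 0.52 (SE 0.08), with a gap of 0.15 between the groups.

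Among animals of the same group the 3 Tmod2 probe sets varied together in direction, which does not draw on the difference between the groups. Over the 14 arrays, as deviations from the group means, Pearson's r was 0.76 between 1369541_at and 1393418_at (permutation p = 0.00354, adjusted p = 0.0815), with Spearman's rho of 0.75 (permutation p = 0.00441, adjusted p = 0.0661). Between 1390482_at and 1393418_at r was 0.70 (permutation p = 0.00566, adjusted p = 0.0815) and Spearman's rho 0.76 (permutation p = 0.00345, adjusted p = 0.0661). Between 1369541_at and 1390482_at r was 0.64 (permutation p = 0.00984, adjusted p = 0.118) and Spearman's rho 0.75 (permutation p = 0.00459, adjusted p = 0.0661). Without the 2 arrays farthest from the median these r were 0.65, 0.57 and 0.69. Within the learning group they were 0.87, 0.65 and 0.82, and within the control group 0.74, 0.80 and 0.63. The adjustment ran over all 72 relations computed, of which 0 passed by either coefficient, while 8 had an unadjusted permutation p under 0.05 by Pearson's r and 9 by Spearman's rho.

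**Figure D2:**
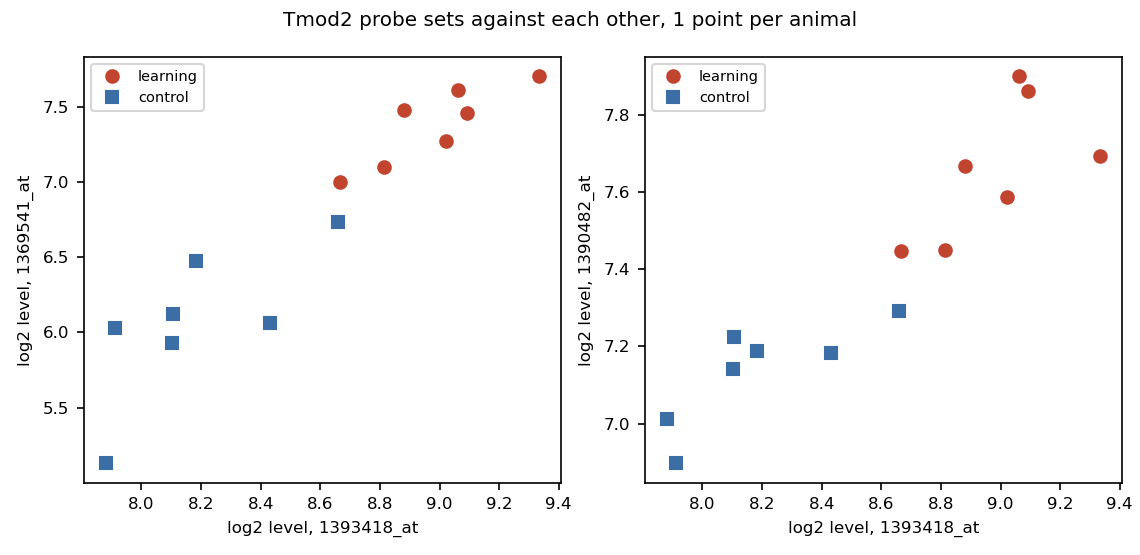
Log2 levels of the dimmest (left) and the middle (right) Tmod2 probe set against the brightest, 1 point per animal, circles for learning and squares for control animals. Animals high at 1 probe set were mostly high at the others inside each group, and the 7 learning animals sit above the 7 control animals on every axis.

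The probe sets whose levels varied most like Tmod2's brightest one inside the groups, over 14 arrays and 7963 probe sets of other genes, were those of the phosphatase Dusp3 (r = 0.93), the synaptic scaffold Homer1 (0.91), the G protein subunit Gnao1 (0.90), the monoamine oxidase Maoa (0.90) and the potassium channel Kcnd2 (0.90). The median r over all of them was -0.041 and the 99th percentile 0.71. Tmod2's own other probe sets had r of 0.76 and 0.70 with its brightest, just above and just below that percentile. These are the extremes of many correlations over arrays that share their RNA quality and hybridization, and are given as a description.

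Of the proteins that handle actin monomers, the brain-enriched profilin Pfn2 and Cap2 were higher in the learning group, and Pfn1, the profilin of most tissues, was nearly level. At Pfn2 1367970_at the lowest, median and highest levels were 10.14, 10.35 and 10.45 in learning animals and 9.53, 9.98 and 10.10 in control animals. The groups did not overlap, and control replicate 5 lay far below the other control animals. The difference was 0.40 (SE 0.08), or 1.32-fold, and it was 0.34 without that animal.

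At the brighter Pfn2 1387015_at the levels were 11.50, 11.58 and 11.63 in learning animals, against 11.32, 11.41 and 11.50 in control animals. Here 6 of the 7 learning animals lay above every control animal, and the difference was smaller, 0.15 (SE 0.04). It was called in 3 of the 14 fits that left out 1 array, with differences of 0.13 to 0.16. Pfn1 had 10.34, 10.47 and 10.64 in learning animals and 10.38, 10.46 and 10.63 in control animals, a difference of -0.015 (SE 0.05) with full overlap.

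Cap2, a cyclase-associated protein, had 9.11, 9.25 and 9.40 at 1368893_at in learning animals and 8.56, 8.94 and 9.15 in control animals. Of the learning animals 5 lay above every control animal. The difference was 0.34 (SE 0.09) and was called, but of the 14 fits that each left out 1 array only the one without control replicate 7 called it. Differences over the 14 were 0.29 to 0.39, the 0.29 without control replicate 5, the lowest animal there. At Cap2 1368894_at levels ran from 9.09 to 9.33 in learning animals and from 8.94 to 9.30 in control animals, with a difference of 0.18 (SE 0.06) that was not called.

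In the WAVE complex, Nckap1 differed clearly at 1 of its 2 probe sets and Cyfip2 did not. At Nckap1 1388196_at the lowest, median and highest levels were 11.62, 11.72 and 11.79 in learning animals, against 11.21, 11.35 and 11.48 in control animals. The groups lay 0.13 apart, and the difference was 0.34 (SE 0.05), or 1.27-fold, with the smallest error relative to its size of all members. Without control replicate 5 the difference was 0.32.

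At Nckap1 1371407_at, of almost the same brightness, levels were 11.53, 11.66 and 11.73 in learning animals and 11.53, 11.60 and 11.71 in control animals. The groups overlapped over nearly their whole range, with a difference of 0.047 (SE 0.04), or 0.035 without control replicate 5. Cyfip2, measured by 1 probe set, had 10.56, 10.72 and 10.83 in learning animals and 10.45, 10.64 and 10.79 in control animals, a difference of 0.085 (SE 0.05) that was not called. Nckap1's 2 probe sets thus gave different answers for 1 gene, and both were designed on expressed sequence tags.

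None of the 5 probe sets of the Rac1, Pak1 and Limk1 signalling chain was called in limma. The Rac1 probe set 1372513_at had 9.89, 9.95 and 10.12 in learning animals and 9.31, 9.87 and 9.92 in control animals. Its difference of 0.18 (SE 0.08) was 0.099 without control replicate 5, which lay 0.51 below the next control animal. The brighter Rac1 1388332_at ran from 11.77 to 12.02 in learning animals and from 11.83 to 11.94 in control animals, a difference of -0.0035 (SE 0.04).

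Pak1 pointed in opposite directions at its 2 probe sets. At 1387377_a_at, designed on a GenBank mRNA, levels were 5.72, 5.74 and 5.86 in learning animals and 5.38, 5.65 and 5.73 in control animals. Of the learning animals 5 of 7 lay above every control animal (difference 0.18, SE 0.06). Without control replicate 5, the lowest animal there, the difference was 0.15. At the much brighter 1389093_at levels were 9.45, 9.50 and 9.71 in learning animals and 9.56, 9.63 and 9.78 in control animals. There 5 of 7 learning animals lay below every control animal (difference -0.092, SE 0.05). Limk1, the kinase that phosphorylates cofilin, ran from 5.03 to 5.49 in learning animals and from 5.29 to 5.55 in control animals, a difference of -0.027 (SE 0.06). One learning animal, replicate 5, was the lowest of all for Limk1, and without it the difference turned to 0.031.

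**Figure D3:**
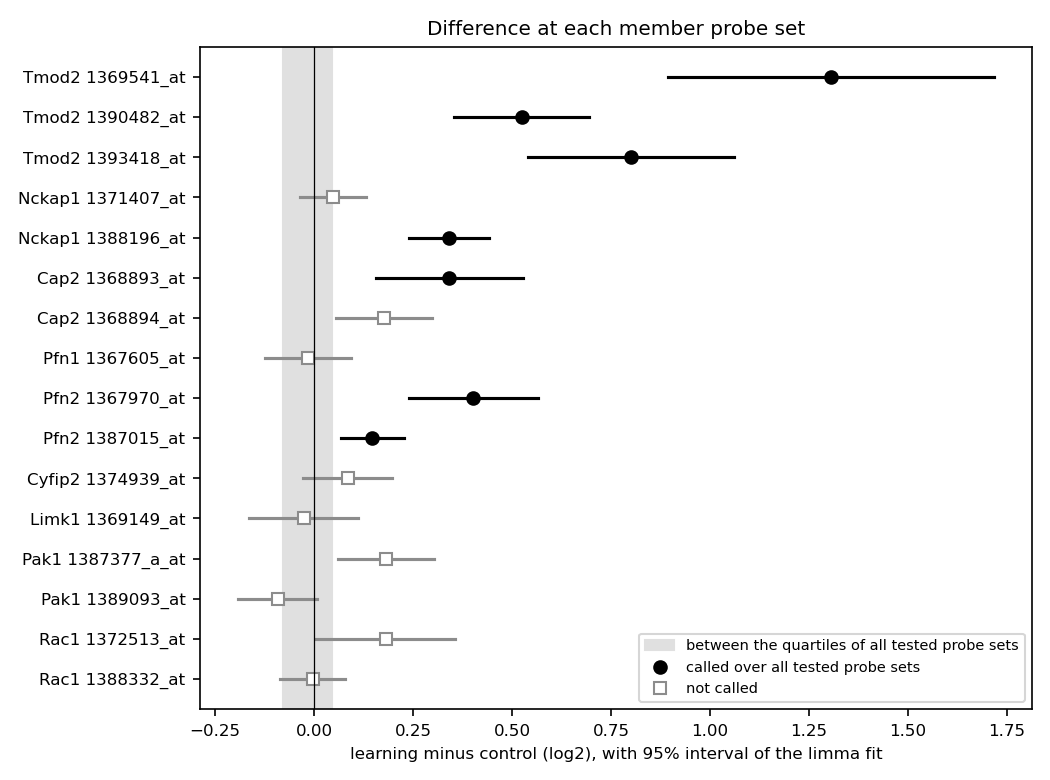
Learning minus control difference (log2) of the 16 member probe sets with the 95% interval of the limma fit, filled circles for called and open squares for other probe sets, and the range between the quartiles of all tested probe sets in grey. Tmod2 stands farthest out, with 0.52 to 1.31, and the signalling genes Rac1, Pak1 and Limk1 lie between -0.092 and 0.18.

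Levels of different genes inside the groups were related loosely. Over 36 pairs of members, each at its brightest probe set, 25 had an r above 0 and the median r was 0.15. The pair with the highest r was Cap2 and Pfn1 with 0.72 (permutation p = 0.00439, adjusted p = 0.0815) and a Spearman's rho of 0.71 (permutation p = 0.00704, adjusted p = 0.0839). Leaving out the 2 farthest arrays gave r = 0.47. The members' brightest probe sets had r between -0.42 and 0.54 with the hexokinase ratio, the Gapdh ratio and the spike-in level, over 27 relations.

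In all 6 members with several probe sets the learning minus control difference was larger at the dimmest probe set than at the brightest, as it was in 657 of 936 other genes (70.2%). The mean levels of these probe sets lay only 0.091 apart for Nckap1 and 0.095 for Cap2, and 1.38 to 3.91 apart for the other members. The dimmest minus brightest level of Nckap1 was 0.056 ± 0.12 in learning and -0.24 ± 0.09 in control animals, and that of Pak1 was -3.78 ± 0.08 in learning and -4.05 ± 0.12 in control animals (SD, n = 7 each). In these 2 genes the groups did not overlap, and neither did they for the array-wide probe set balance (learning -3.30 to -3.20, control -3.65 to -3.34). How many other genes separate in this way was not counted, so the separation cannot be called particular to these 2. For Tmod2, Pfn2, Rac1 and Cap2 the shift was 0.51, 0.26, 0.18 and 0.17, with overlap. Probe sets bind with different strength, so such a shift does not measure relative abundance.

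The array-wide probe set balance moved with the groups in the same direction. Within the groups it ran with the difference between the probe sets of Pfn2 with r = 0.87 (permutation p = 0.00498, adjusted p = 0.0815) and a Spearman's rho of 0.69 (permutation p = 0.0103, adjusted p = 0.0839), and that of Cap2 with r = 0.65 (permutation p = 0.00272, adjusted p = 0.0815) and a Spearman's rho of 0.74 (permutation p = 0.00263, adjusted p = 0.0661). Leaving out the 2 farthest arrays gave 0.44 and 0.59. For Tmod2 r was 0.68 (permutation p = 0.0714, adjusted p = 0.514) with a Spearman's rho of 0.35 (permutation p = 0.264, adjusted p = 0.881), and r was -0.12 when those arrays were left out, so that relation rests on them. For Nckap1 r was 0.50 (permutation p = 0.0174, adjusted p = 0.179) with a Spearman's rho of 0.69 (permutation p = 0.00342, adjusted p = 0.0661). Leaving those arrays out gave r = 0.72. For Rac1 r was 0.75 (permutation p = 0.108, adjusted p = 0.554) with a Spearman's rho of 0.31 (permutation p = 0.29, adjusted p = 0.881), while r = -0.40 was found when they were left out. For Pak1 r was 0.30 (permutation p = 0.455, adjusted p = 0.90) with a Spearman's rho of 0.099 (permutation p = 0.75, adjusted p = 0.989), and leaving them out gave r = -0.15. With the balance as covariate limma called 0 of all 9520 probe sets, so 0 of the members too, and an unadjusted p under 0.05 was reached by 851 of all and by 7 of the 16 member probe sets. In that fit the Tmod2 differences were 0.61 (SE 0.16), 0.38 (SE 0.11) and 0.48 (SE 0.15) in the order in which they are plotted. Nckap1 1388196_at had 0.21 (SE 0.06), Pfn2 1367970_at 0.12 (SE 0.06) and Cap2 1368893_at 0.044 (SE 0.08), and Rac1 1372513_at turned to -0.11. Pfn2 1387015_at had 0.18 (SE 0.06), Cyfip2 0.19 (SE 0.07) and Pak1 1389093_at, lower in the learning group, -0.15 (SE 0.07). The 7 member probe sets in that fit are therefore not the 7 called without the covariate. The balance correlated with group at 0.75, so the covariate can also take out a difference between the groups.

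**Figure D4:**
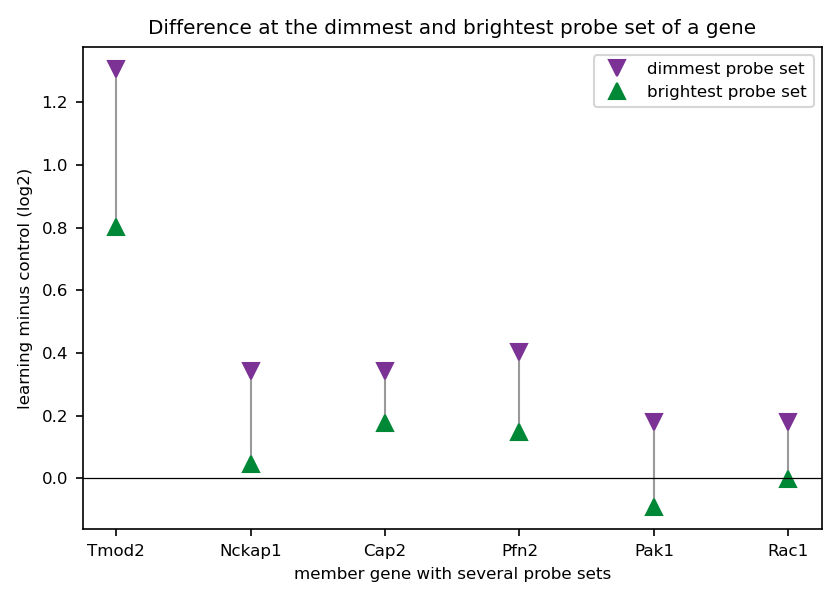
Learning minus control difference (log2) at the dimmest and the brightest probe set of the 6 members with several. The dimmest lies above the brightest in each gene, with 1.31 and 0.80 for Tmod2, 0.34 and 0.047 for Nckap1, and 0.18 and -0.092 for Pak1.

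Among other genes of actin regulation, 6 had a probe set called higher and none had a probe set called lower. The list of 82 genes was written by role and not by how they moved, and 62 had a tested probe set, 99 in all. In limma 7 probe sets were called higher (7.07%, against 3.35% called over all probe sets) and 0 lower, and an unadjusted p under 0.05 was reached by 30 with higher and 5 with lower levels, against 889 and 1009 of all 9520. Their median difference was 0.047, against -0.017 over all tested probe sets, and 58 of the 99 lay above 0. With only the brightest probe set of each gene tested, 1 of 62 was called, and 132 over the whole array. Without single arrays the count of called probe sets ran from 3 to 12. It was 3 without learning replicate 3, 4, 6 or 7 or control replicate 1 or 2, 4 without learning replicate 2 or control replicate 3, and 12 without control replicate 6, while leaving out any other array gave 5 or 6.

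Among the 8 tested genes of filament ends, Capza2, a subunit of the protein that caps the barbed end, rose to 10.61 ± 0.09 in learning animals, against 10.39 ± 0.05 in control animals (limma adjusted p = 0.0152), without overlap. The other 7 did not pass, with a difference of -0.051 for Tmod1, -0.076 for Tmod3 and -0.11 for Capzb, and the median of the 8 probe sets was -0.064. Of the 11 genes of monomer and filament turnover 0 passed, with 0.04 for Cap1 and 0.10 for Cfl2 at their brightest probe sets. Their dimmer probe sets had 0.20 for Cap1 and -1.7e-04 for Cfl2.

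In nucleation and elongation 1 of 19 genes was called. Wasl, an activator of the Arp2/3 complex, had 7.39 ± 0.21 in learning and 6.92 ± 0.22 in control animals at a dimmer probe set (limma adjusted p = 0.0297) and a difference of 0.07 at its brightest (adjusted p = 0.508). The WAVE partners Cyfip1 (0.062), Abi1 (0.14 at its brightest probe set and 0.30 at its dimmer one) and Abi2 (-0.088) did not pass. The kinase Rock2 rose by 0.43 at a dimmer probe set (SE 0.08, limma adjusted p = 0.00925) and had a difference of 0.053 at its brightest (limma adjusted p = 0.383).

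Filament-binding tropomyosins held most of the remaining calls. Tpm3 rose at 2 probe sets, by 0.43 (limma adjusted p = 0.00503) and, at its brightest, by 0.27 (limma adjusted p = 0.0466). Its other tested probe sets did not pass, with differences from -0.0076 to 0.36. Tpm1 rose by 0.22 at 1 probe set (limma adjusted p = 0.0393), while its other 4 tested probe sets did not pass, with 0.15 at the brightest and -0.073, -0.086 and -0.13 at the rest. Pls3, an actin-bundling protein, rose by 0.38 at its dimmer probe set (limma adjusted p = 0.0464) and had -0.085 at its brightest. The cytoplasmic actin Actg1 had a difference of 0.11 (limma adjusted p = 0.14).

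**Figure D5:**
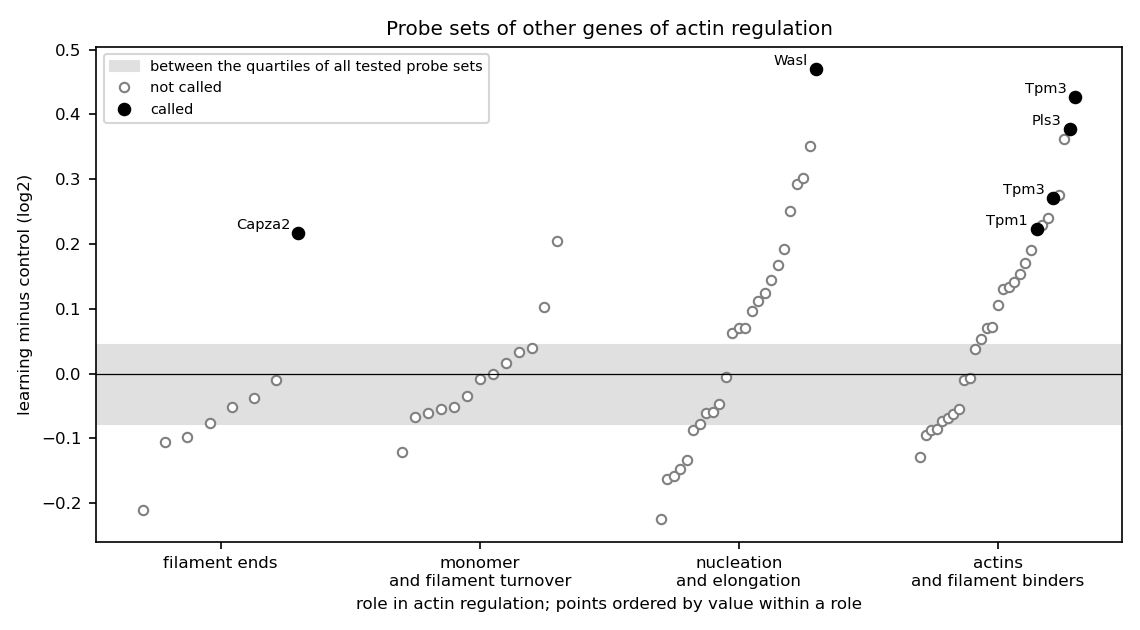
Learning minus control difference (log2) of the 75 tested probe sets in 4 roles of the list of other genes of actin regulation, in order of value within a role, filled where called and open otherwise, with the range between the quartiles of all tested probe sets in grey. The 6 called probe sets, of Capza2, Wasl, Tpm1, Tpm3 and Pls3, lie between 0.22 and 0.47.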

How the data were processed

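The deposited table holds log2 expression levels, 1 column per array, which the authors made with GCRMA, per the submitters' processing notes. The version and settings of GCRMA were not stated there, and that the scale is log2 was read from the range of the values, whose column medians lay between 5.07 and 5.09. GCRMA corrects background by probe sequence, so differences of dim probe sets can be compressed or amplified. Groups and replicate numbers came from the sample titles, which call the samples biological replicates. Genes came from GEO's platform annotation, which names 1 gene for 12789 probe sets, several for 312 and lists none for 2771. Current symbols were taken from RefSeq (GRCr8) by Entrez ID, which matched 12754 of them.

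The 57 control probe sets and the 6346 below the 40th percentile of mean level were left out, and the remaining 9520 entered a linear model in limma 3.58.1 (lmFit, eBayes; R 4.3.3), learning minus control, with Benjamini-Hochberg adjustment over all of them. SE and ± SD are on the log2 scale. Relations inside the groups were tested by 100000 permutations within groups. The members, lists and tests were chosen with earlier results of these data known. Named were all members, every called gene of the actin lists and the 5 probe sets most like Tmod2. Alternatives were other filters, variance moderation, array weights, scaling, the replicate block, covariates, each array left out and 1 probe set per gene. The probe set balance was not among the array measures planned, and the relations with it were added after the data were seen. In simulated data with 9520 probe sets, 200 of them changed, 85% of changes of 0.4 and 100% of changes of 1 on the log2 scale were recovered, with 6.57% false calls. The simulated noise was independent between probe sets, without a shift shared by an array or a group. These rates therefore need not hold for the arrays described here. Arrays have no read depth, and their number limits the precision. One role of the list of other actin genes is counted in the totals and is not reported here by itself. Scan dates were not used here, and batches were not tested.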

Additional observations from a re-analysis of the deposited data

Results flagged for a closer look

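In 7 of 54 groups of 7 values 1 array lay far from the others, with a gap above 0.568 of the range. Chance gives about 5% for a single group. The 54 groups share arrays and partly values, so their count cannot be read against that rate. In 6 of the 7 groups the array was control replicate 5. It had a log2 level of 9.53 at Pfn2 1367970_at (other control animals 9.86 to 10.10) and 9.31 at Rac1 1372513_at (others 9.82 to 9.92). Its dimmest minus brightest probe set of Rac1 was -2.58 (others -2.06 to -1.92). The same array had a Gapdh 3'/5' ratio of 0.64 on the log2 scale (others 0.46 to 0.52), a hexokinase ratio of 2.57 (others 1.03 to 1.61) and a probe set balance of -3.65 (others -3.44 to -3.34). The remaining one was Limk1 1369149_at in learning replicate 5, with 5.03 (others 5.40 to 5.49).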

How the results depend on the processing

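The count of 7 called member probe sets stayed within 1.5 times under most settings. It was 4 after adjusting for the Gapdh ratio, 0 after adjusting for the probe set balance and 1 of 9 with the brightest probe set per gene. Calls over the whole array, 319, fell as well, to 39, 0 and 132 in these settings. With the balance, 7 member probe sets had an unadjusted p under 0.05 in limma, but not the same 7. Without single arrays the count of called member probe sets ran from 5 to 8. The 3 Tmod2 probe sets and Nckap1 1388196_at were called in every setting that tested them except the balance covariate, Pfn2 1367970_at in all but that and the Gapdh covariate, Pfn2 1387015_at in 10 of 28 and Cap2 1368893_at in 5 of 27. Called members kept their sign in all settings. The count of 7 for other actin genes was 3 without a filter, 4 with the filter at the 20th percentile, 0 with the Gapdh ratio (25 at an unadjusted p under 0.05) or the balance (10), 3 with the hexokinase ratio or the dentate level, 2 with the spike-in level and 1 with the brightest probe set per gene, and ran from 3 to 12 without single arrays. Calls over the whole array were 158 without a filter, 222 with the filter at the 20th percentile, 177 with the hexokinase ratio, 168 with the dentate level and 91 with the spike-in level, and ran from 163 to 352 without single arrays. The cause of these changes was not tested. More probe sets were tested without a filter or with it at the 20th percentile, and fewer with the brightest probe set per gene. Of 72 relations inside the groups 0 passed, also after quantile normalization, and without single arrays 0 to 2 did, the 2 without control replicate 2. Same-numbered animals share only a number: their deviations correlated between -0.16 and 0.13, 1 of 7 learning arrays correlated best with its own number, and with the replicate block 5 member probe sets and 8 others were called. Differences at dim probe sets are limited by signal over background.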
